A study of Rattus norvegicus with 14 samples.

Results

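Pineal glands collected deep in the night, at zeitgeber times (hours after lights on) ZT19 and ZT23, were set against pineal glands collected by day and at dusk, at ZT7, ZT13 and ZT15. The 5 libraries, 2 of deep night and 3 of day and dusk, were taken from the 14 libraries of the series by tissue and time label alone. They came from Sprague-Dawley rats of 6 to 8 weeks, housed in a cycle of 14 h light to 10 h dark. No treatment is named, and the labels give no sex. ZT19 and ZT23 lie in darkness, ZT7 and ZT13 in the light, and ZT15 soon after lights off. Each library was made from a pool of 10 animals, and each time was sampled once. The libraries of a group are therefore different times of 1 day, and its spread holds both the difference between pools and any change between those times. The pineal library of ZT1, at the start of the light, belonged to neither group and is given beside them as a single value. Retina libraries of the same times served as a second tissue.

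The pineal gland is an endocrine organ that makes melatonin at night. In rats, sympathetic fibres release noradrenaline in darkness, which acts on beta-1 and alpha-1B adrenergic receptors of the pinealocytes and raises cyclic AMP. Cyclic AMP activates protein kinase A and the factor CREB, which binds cyclic AMP response elements (CREs) in promoters. Serotonin is then acetylated by the Aanat enzyme and methylated by the Asmt enzyme to give melatonin. Phosphodiesterases break cyclic AMP down, and inducible repressors and phosphatases bring the response to an end. Pinealocytes also share many genes of the light response with photoreceptors.

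Expression was taken as deposited, in FPKM (fragments per kilobase of transcript, scaled to each library's fragments), which allows levels of different genes to be compared per length. Differences are deep night minus day and dusk on the scale of log2(FPKM + 1), which understates the change of weakly expressed genes. The 5 libraries summed to between 163087 FPKM (ZT19) and 180522 FPKM (ZT15), and 8852 to 9336 genes reached 1 FPKM. Both deep night libraries were shallower by the estimated worth of 1 fragment in a 1 kb transcript, which was 0.0527 FPKM at ZT19 and 0.0475 FPKM at ZT23, against 0.0339 to 0.0356 FPKM in the day and dusk libraries. The part of this difference in the results was not tested. Tph1, a defining pinealocyte gene, was the most abundant transcript in each of the 5 libraries. Across genes, which are not independent replicates, the log2 values of ZT19 and ZT23 correlated at 0.989 and those of the day and dusk libraries at 0.992 to 0.994. Pairs of 1 deep night and 1 day or dusk library lay lower, at 0.975 to 0.978.

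Of 9353 genes tested, 493 (5.27%) rose and 1033 (11%) fell at an adjusted p under 0.05 in limma, so 1526 (16.3%) were called in either direction. The balance turned with size: 211 genes (2.26%) rose at least 2-fold, and 113 (1.21%) fell at least 2-fold. At least 16-fold, 9 genes rose and 0 fell. The lowering of most called genes was slight, with 920 of the 1033 under 2-fold. The median difference of all genes tested was -0.17, and most genes therefore lay a little lower at night on the FPKM scale. With a scaling that brought the median near 0, the split turned round, to 741 genes higher and 411 lower by median ratio and 622 higher and 527 lower by quantile scaling. Of the 1033 genes that fell, 377 were called under both scalings, against 489 of the 493 that rose. The shares are read against a loose background, since 35.7% of genes passed an unadjusted p of 0.05. Both deep night values lay above all 3 day and dusk values in 12.8% of genes tested and below all 3 in 40.6%.

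**Figure D1:**
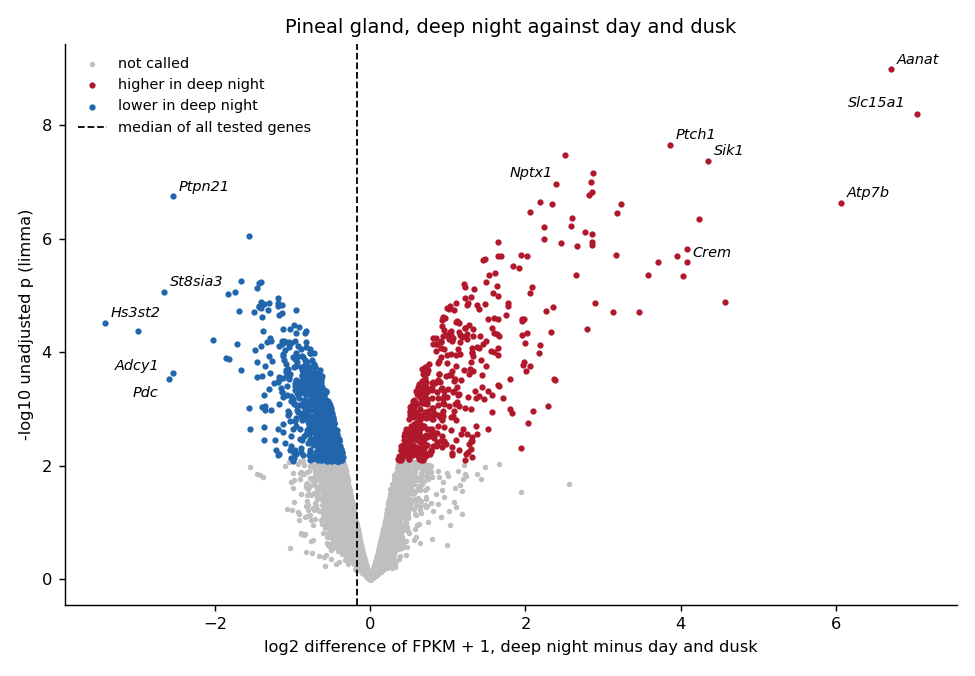
Each point is 1 of 9353 genes tested in the pineal gland, with the log2(FPKM + 1) difference, deep night minus day and dusk, on the x axis and −log10 of the unadjusted p on the y axis, and a dashed line at the median of all genes tested, -0.17. The 493 genes that rose spread far to the right, up to 7.04 for Slc15a1, and the 1033 that fell lie mostly close to 0.

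The largest rise was that of Slc15a1, which takes up di- and tripeptides. It had 270.0 and 156 FPKM in the deep night libraries, against 0.708, 0.411 and 0.593 FPKM in the day and dusk libraries (difference 7.04 ± 0.22 SE, adjusted p = 2.98e-05). Aanat, whose product acetylates serotonin, had 650.3 and 857 FPKM at deep night, against 7.05, 6.35 and 5.13 FPKM by day and dusk (6.71 ± 0.17, adjusted p = 9.71e-06). The ranges of both genes lay far apart, and ZT15, already dark, was not above the light libraries for Aanat. Atp7b encodes a copper transporter (rn4 chromosome 16, 74607988 to 74680080), and its values were 139 and 144 FPKM at deep night, against 2.48, 0.833 and 0.500 FPKM (6.07 ± 0.32, adjusted p = 0.000152). Fcer1a, a chain of the high-affinity receptor for immunoglobulin E, had 164 and 134 FPKM at deep night, against 9.78, 6.02 and 2.31 FPKM (4.57 ± 0.43, adjusted p = 0.00168). In Atp7b and Fcer1a the day and dusk values stepped down in the order ZT7, ZT13, ZT15, so their lowest level came just after lights off.

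Sik1 encodes a kinase known to act against the CREB coactivators. It had 68.3 and 44.1 FPKM at deep night, against 1.80, 1.77 and 1.62 FPKM by day and dusk (4.36 ± 0.18, adjusted p = 7.91e-05). Dclk3, a kinase of the doublecortin-like family, had 106 and 54.8 FPKM, against 3.13, 3.22 and 2.94 FPKM (4.24 ± 0.25, adjusted p = 0.000222). Crem (rn4 chromosome 17, 62770633 to 62837670) is the source of the inducible repressor ICER in the rat pineal gland. Its summed transcripts stood at 179 and 87.5 FPKM at deep night, against 5.18, 6.08 and 8.49 FPKM (4.08 ± 0.31, adjusted p = 0.000592), and the isoforms were not told apart. In all 3 genes ZT19 was the higher deep night library. The same order held for Irs2, an adaptor of the insulin receptor, with 85.7 and 39.1 FPKM against 2.79, 2.78 and 2.82 FPKM (3.96 ± 0.29, adjusted p = 0.000517). It held for Dusp1, a phosphatase that switches off MAP kinases, with 70.4 and 33.9 FPKM against 2.81, 2.43 and 3.25 FPKM (3.71 ± 0.28, adjusted p = 0.000592). Zrsr1, a relative of splicing factor U2AF1 whose reads a close paralogue may share, had 145 and 67.4 FPKM, against 6.82, 8.38 and 7.12 FPKM (3.57 ± 0.29, adjusted p = 0.000879).

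The opposite order, with ZT23 above ZT19, was seen for Aanat, Hhip and Drd4, and Atp7b was nearly level. Each time was 1 pool. Of the 211 genes that rose at least 2-fold, 103 were higher at ZT23 and 108 at ZT19. Hhip, which binds hedgehog ligands and dampens their signal, had 28.3 and 56.4 FPKM at deep night, against 1.88, 1.05 and 1.45 FPKM (4.07 ± 0.28, adjusted p = 0.00045). Drd4, the dopamine D4 receptor (rn4 chromosome 1, 201485597 to 201488784), had 27.5 and 55.8 FPKM, against 2.32, 1.40 and 0.879 FPKM (4.03 ± 0.33, adjusted p = 0.000898). In neither gene did the groups come near each other. Ptch1, the hedgehog receptor and itself a target of the pathway, had 192 and 147 FPKM at deep night, against 9.79, 10.3 and 11.9 FPKM (3.86 ± 0.15, adjusted p = 6.87e-05). Ribc2, which encodes a protein of the inner lumen of ciliary microtubules, completed the 14 largest rises with 23.5 and 18.6 FPKM against 2.40, 0.552 and 0.511 FPKM (3.46 ± 0.35, adjusted p = 0.00185). Each of these 14 genes kept its call without any 1 library, except that Slc15a1 could not be tested without ZT19 or ZT23, since only 1 library then reached 1 FPKM.

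**Figure D2:**
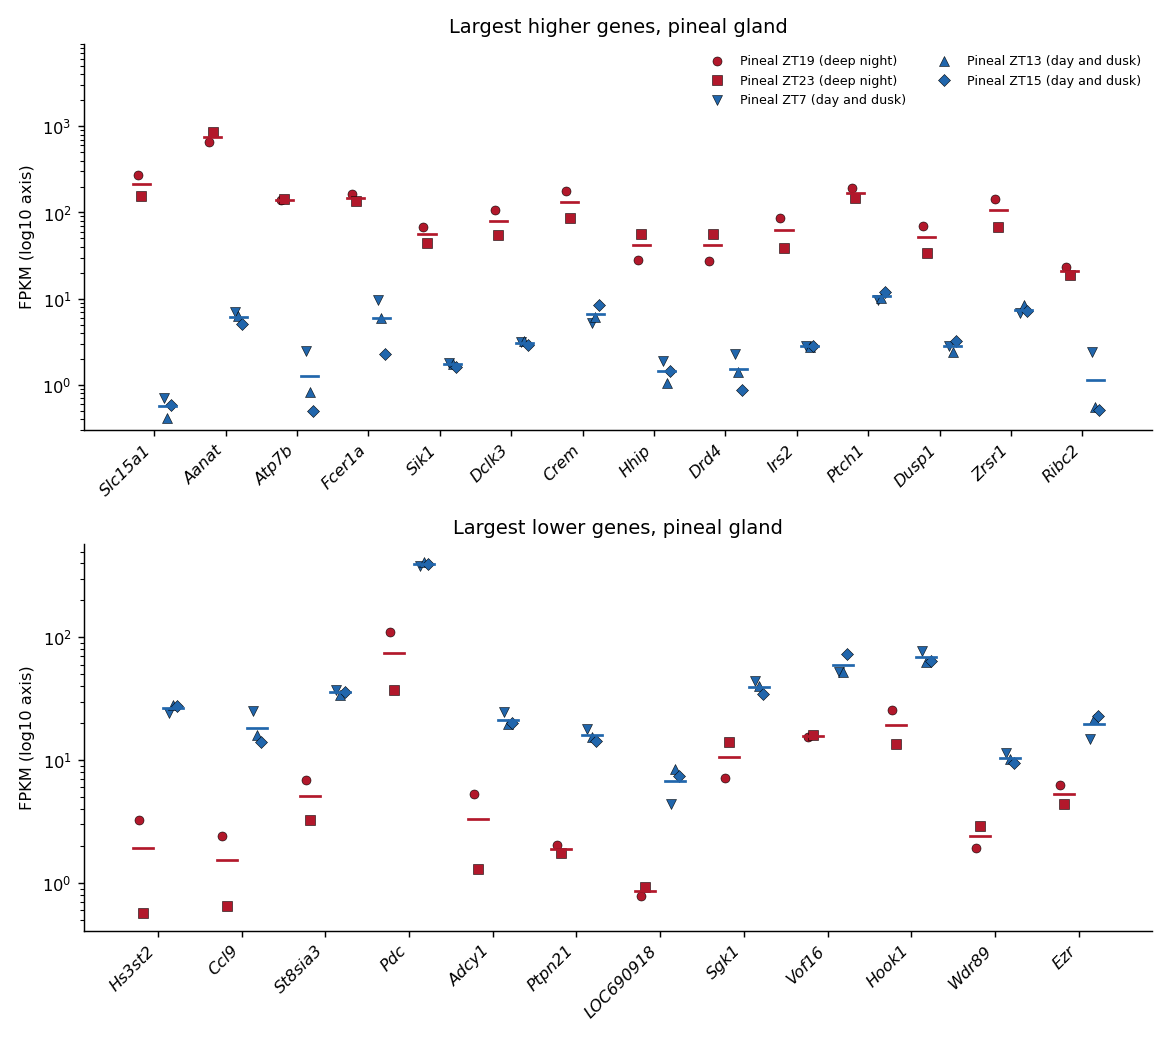
FPKM on a log10 axis in each pineal library for the 14 genes with the largest rises and the 12 with the largest falls, deep night points drawn to the left of day and dusk points, and bars at the group means. The groups of every gene drawn are apart, from Slc15a1 (deep night mean 213 FPKM, day and dusk mean 0.571 FPKM) to Ezr at the small end of the falls.

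Promoter sequence was available from RefSeq on the GRCr8 build, which is not the rn4 build of the expression table, as 250 bases before to 50 after each gene's start. The core of the CRE, TGACG on either strand, stood in 40.35% of the promoters of genes that rose, in 27.26% of those of genes that fell, in 33.16% of those of all genes tested and in 21.96% of all promoters in the table. The full palindrome TGACGTCA, which contains the core, stood in 31 of 404 promoters of genes that rose (7.67%) and in 19 of 862 of genes that fell (2.2%), beside 3.45% of genes tested and 1.91% of all promoters. For changes of at least 2-fold it stood in 14 of 176 promoters of genes that rose (7.95%) and in 4 of 91 of genes that fell (4.4%). For rises of at least 4-fold it stood in 2 of 50 (4.0%). CACGTG, the E-box that clock factors bind, stood in 8.91% of promoters of genes that rose, 9.74% of genes that fell, 9.65% of genes tested and 6.65% of all promoters. TAATCC, the letters bound by CRX and OTX2, stood in 5.45%, 5.1%, 5.4% and 7.11% of the same sets in that order. These shares were not tested, a match is a description of letters, and a window without a match says nothing of the factor.

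The windows printed here were taken from genes with a large rise that hold a match, and capitals mark the CRE letters in the direction of the gene. Among the largest rises named above, the promoters of Atp7b, Dclk3, Hhip, Ptch1 and Ribc2 hold no core. No promoter was available for Irs2 and Zrsr1. The full palindrome also stands in promoters of genes that fell, among them Hs3st2, the largest fall, and Isl2. The first 4 windows hold the core alone, and further matches inside a window stay in lower case. The last 3 are 3 of the 14 genes that rose at least 2-fold and hold the full palindrome, among which are also Nos1, Mapk10, Tspyl4, Scg2, Arl4d and Ppp1r15a.
Aanat, chr10:102326103-102326147, + strand: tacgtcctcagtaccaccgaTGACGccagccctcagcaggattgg
Slc15a1, chr15:104949483-104949527, − strand: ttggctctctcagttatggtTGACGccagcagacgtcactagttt
Sik1, chr20:9958802-9958846, − strand: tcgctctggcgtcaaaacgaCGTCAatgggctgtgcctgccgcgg
Nr4a1, chr7:134260036-134260080, + strand: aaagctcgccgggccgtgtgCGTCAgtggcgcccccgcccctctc
Dusp1, chr10:17184699-17184766, + strand: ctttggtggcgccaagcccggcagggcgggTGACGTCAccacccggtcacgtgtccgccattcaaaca
Rcan1, chr11:45118406-45118473, − strand: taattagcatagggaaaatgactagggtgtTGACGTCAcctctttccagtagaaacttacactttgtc
Btg2, chr13:48087854-48087921, − strand: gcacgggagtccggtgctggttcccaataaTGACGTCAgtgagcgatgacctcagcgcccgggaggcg

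Of 16 tested genes of melatonin and serotonin synthesis and supply, 3 rose and 1 fell, and their median difference was 0.12, beside -0.17 for all genes tested. This count and those of the later lists stand beside 5.27% rises and 11% falls among all genes tested. Aanat rose most. Mat2a, which makes the methyl donor used by Asmt, had 81.5 and 45.3 FPKM at deep night, against 12.7, 11.04 and 11.9 FPKM (2.26 ± 0.23, adjusted p = 0.00181). Slc7a5, a carrier of tryptophan and other large amino acids, had 36.2 and 53.7 FPKM, against 20.9, 22.6 and 24.0 FPKM (0.94 ± 0.17, adjusted p = 0.014). Gch1, whose product starts the synthesis of the cofactor of Tph1, fell, with 88.8 and 66.3 FPKM against 132, 125 and 132 FPKM (-0.75 ± 0.15, adjusted p = 0.0182). By median ratio scaling Gch1 was not called (adjusted p = 0.0659). The calls of Slc7a5 (highest adjusted p 0.0621) and Gch1 (0.0721) were lost without ZT7 or ZT13, and that of Gch1 also without ZT15.

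The other 3 enzymes on the way from tryptophan to melatonin did not pass. Tph1, the first enzyme from tryptophan, stood at 2968 and 3213 FPKM at deep night, against 3795, 3716 and 3848 FPKM by day and dusk, a difference of -0.29 ± 0.28 (adjusted p = 0.468). This SE is moderated along the trend of variance with level and is wider than the spread of Tph1 itself. The SD of Tph1 was 173 FPKM at deep night and 66.9 FPKM by day and dusk. Ddc, the decarboxylase that makes serotonin, stood at 209 and 182 FPKM, against 129.6, 163 and 217 FPKM (0.23 ± 0.22, adjusted p = 0.47). The groups of Ddc overlap, while both deep night values of Tph1 lie under the others. Asmt, the last enzyme, stood at 297 and 444 FPKM, against 277, 237 and 278 FPKM (0.46 ± 0.20, adjusted p = 0.146), and it passed without ZT19. Between ZT19 and ZT23 Asmt differed more than within the day and dusk libraries.

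Of 33 tested genes of adrenergic and cyclic AMP signalling, 10 rose and 3 fell (median 0.05), and 8 and 1 of these calls held without any 1 library. Phosphodiesterases made up 7 of the 10 rises, and Crem, Sik1 and Adra1b the other 3. Pde10a had 53.0 and 37.0 FPKM at deep night, against 3.35, 4.48 and 4.29 FPKM (3.18 ± 0.18, adjusted p = 0.000191), and Pde8b had 27.8 and 42.6 FPKM, against 4.31, 3.32 and 4.06 FPKM (2.86 ± 0.19, adjusted p = 0.000391). Pde4b, a cyclic AMP-specific form, had 71.0 and 56.5 FPKM, against 12.3, 11.7 and 11.2 FPKM (2.34 ± 0.12, adjusted p = 0.000152). Pde7b rose with a difference of 1.51 (adjusted p = 0.0022), Pde4d with 1.52 (0.0106) and Pde3a with 0.70 (0.0119), and the call of Pde4d was lost without ZT13 (0.0513). Every member of this family named here degrades cyclic AMP, and Pde10a and Pde3a also act on cyclic GMP. Adra1b, the alpha-1B receptor, had 42.9 and 65.1 FPKM, against 21.2, 22.4 and 19.3 FPKM (1.296 ± 0.18, adjusted p = 0.00572). Adrb1, the beta-1 receptor, stood at 32.6 and 50.1 FPKM, against 36.7, 36.2 and 41.6 FPKM, with overlapping groups (0.08 ± 0.18, adjusted p = 0.757).

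Among the falls, Adcy1, an adenylate cyclase stimulated by calmodulin, had 5.32 and 1.298 FPKM at deep night, against 24.6, 19.6 and 19.9 FPKM (-2.55 ± 0.38, adjusted p = 0.00755). Both deep night values were low, and ZT23 was the lower. Pkig, an inhibitor of protein kinase A, fell with a difference of -0.80 (adjusted p = 0.0184), and Prkacb, a catalytic subunit of that kinase, with -0.50 (adjusted p = 0.0432). Neither was called by median ratio scaling (adjusted p = 0.0648 and 0.115), and Prkacb was not called by quantile scaling either (0.151). The call of Pkig was lost without ZT7, ZT13 or ZT15 (highest adjusted p 0.0635) and that of Prkacb without any one of the 5 libraries (0.131).

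Of 16 tested immediate early genes, which are switched on within minutes to an hour of a stimulus, 6 rose and 1 fell (median 0.32). Nr4a1, a nuclear receptor without a known hormone, had 37.6 and 30.2 FPKM at deep night, against 3.43, 4.11 and 3.99 FPKM (2.84 ± 0.13, adjusted p = 0.000126). Klf10, a zinc finger factor, had 11.3 and 11.1 FPKM, against 5.50, 5.42 and 5.38 FPKM (0.93 ± 0.10, adjusted p = 0.00264). These were the 2 whose calls held without any 1 library, and the groups of both were tight. Btg2, which restrains cell division, had 32.0 and 24.2 FPKM, against 7.20, 9.78 and 13.6 FPKM (1.41, adjusted p = 0.0119), with a call lost without ZT13 (0.0539). Egr1, a zinc finger factor, had 19.4 and 10.6 FPKM, against 6.11, 5.35 and 5.39 FPKM (1.22, adjusted p = 0.0151), with a call lost without ZT13 or ZT15 (highest 0.0659).

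Dual specificity phosphatases, which remove phosphate from MAP kinases, gave 4 rises and 0 falls among 10 tested (median 0.18), so the other 6 did not pass. Beside Dusp1, Dusp8 had 21.4 and 19.5 FPKM at deep night, against 8.15, 8.59 and 8.00 FPKM (1.21 ± 0.10, adjusted p = 0.00109). Both calls held without any 1 library. The rises of Dusp3 (0.67, adjusted p = 0.0432) and Dusp5 (0.54, adjusted p = 0.0413) were both lost without ZT7, ZT13 or ZT15. That of Dusp3 was also lost without ZT23 (highest 0.128) and that of Dusp5 without ZT19 (highest 0.141). Rcan1, an inhibitor of the calcium-dependent phosphatase calcineurin, had 119 and 65.2 FPKM, against 15.6, 16.8 and 17.1 FPKM (2.35 ± 0.23, adjusted p = 0.00171).

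Clock genes gave 2 rises and 1 fall among 18 tested (median 0.14), beside 5.27% rises and 11% falls among all genes tested. Per1, a repressor in the clock that cyclic AMP can induce, had 24.2 and 10.4 FPKM at deep night, against 4.47, 6.42 and 6.98 FPKM (1.301 ± 0.33, adjusted p = 0.0381). Cry2, a second clock repressor, had 48.4 and 25.1 FPKM, against 9.83, 14.2 and 17.6 FPKM (1.31 ± 0.31, adjusted p = 0.0317). The call of Per1 was lost without ZT7, ZT13, ZT15 or ZT19 (highest 0.103) and that of Cry2 without ZT7, ZT13 or ZT19 (highest 0.0997). Rora, a nuclear receptor that activates Arntl, fell, with 5.18 and 5.89 FPKM against 9.90, 12.03 and 9.80 FPKM (-0.82 ± 0.13, adjusted p = 0.00916), and held without any 1 library. Arntl, the activator BMAL1, stood at 2.54 and 8.59 FPKM, against 10.3, 3.38 and 2.79 FPKM (0.03 ± 0.55, adjusted p = 0.98). Its 2 deep night values span most of the range of the day and dusk values. Nr1d1, a repressor of Arntl, stood at 34.0 and 12.2 FPKM, against 35.4, 68.8 and 68.3 FPKM, and did not pass (-1.38 ± 0.44, adjusted p = 0.0715).

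Of 13 tested transcription factors of pinealocytes and photoreceptors, 3 rose and 1 fell (median -0.11). Bsx, a homeobox factor, had 196 and 110.3 FPKM at deep night, against 34.7, 32.7 and 39.5 FPKM (2.02 ± 0.23, adjusted p = 0.00311). Isl2, a LIM homeobox factor, fell, with 26.3 and 21.3 FPKM against 60.0, 61.2 and 71.2 FPKM (-1.40 ± 0.13, adjusted p = 0.00168). These were the calls that held without any 1 library. Crx, which controls many pineal and photoreceptor genes, had 274 and 275 FPKM, against 196, 159.7 and 177 FPKM (0.63 ± 0.14, adjusted p = 0.0261), and its call was lost without ZT13, ZT15, ZT19 or ZT23 (highest 0.113). Lhx4, a LIM homeobox factor, had 328 and 278 FPKM, against 178, 185 and 212 FPKM (0.66 ± 0.15, adjusted p = 0.0288), lost without ZT7, ZT13, ZT15 or ZT19 (highest 0.115). Otx2, which acts upstream of Crx, stood at 212 and 109.9 FPKM, against 138, 145 and 156 FPKM, and its deep night values lie on both sides of the others (0.06 ± 0.26, adjusted p = 0.885).

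Hedgehog signalling gave 3 rises and 1 fall among 7 genes tested (median -0.13), and each of these calls held without any 1 library. Beside Ptch1 and Hhip, Gli2, a transcription factor of the pathway, had 6.73 and 6.12 FPKM at deep night, against 3.06, 2.04 and 2.35 FPKM (1.10 ± 0.16, adjusted p = 0.00637). Sufu, which holds Gli factors in check, had 1.24 and 1.34 FPKM, against 4.72, 3.45 and 3.50 FPKM (-1.08 ± 0.16, adjusted p = 0.00695). Its level was close to the filter of 1 FPKM.

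Insulin and insulin-like growth factor signalling gave 2 rises and 4 falls among 20 genes tested (median -0.27). The receptor gene Igf1r had 37.9 and 34.7 FPKM at deep night, against 7.19, 8.11 and 8.70 FPKM (2.05 ± 0.12, adjusted p = 0.000191), and so rose together with the adaptor gene Irs2. The growth factor gene Igf2 fell, with 31.7 and 29.96 FPKM against 78.5, 102 and 58.5 FPKM (-1.31 ± 0.21, adjusted p = 0.0103). Igfbp2, which binds these growth factors, had 8.76 and 9.27 FPKM, against 23.8, 32.4 and 21.3 FPKM (-1.40 ± 0.17, adjusted p = 0.00383). Foxo3, a factor that insulin signals hold inactive, had 4.96 and 5.43 FPKM, against 10.1, 8.54 and 9.26 FPKM (-0.73 ± 0.12, adjusted p = 0.00971). Igfbp2 and Igf2 are also expressed in meninges. Of 15 tested fibroblast and meninges markers 0 rose and 2 fell, Igfbp2 itself and Fmod, and the part of such cells in these falls was not tested. Fmod was not called by quantile (adjusted p = 0.0636) or median ratio scaling (0.0527). In bulk tissue fewer cells of a type and less RNA per cell cannot be told apart.

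Peptide and amino acid transporters gave 6 rises and 1 fall among 20 tested (median 0.05). After Slc15a1 came Slc17a6, the vesicular glutamate transporter VGLUT2, with 123 and 81.9 FPKM at deep night, against 21.8, 21.5 and 25.7 FPKM (2.08 ± 0.18, adjusted p = 0.00119). Its call held without any 1 library. The remaining rises were under 2-fold, and those of Slc7a1 (0.90, adjusted p = 0.0184), Slc6a9 (0.72, 0.0188) and Slc38a3 (0.60, 0.0143) were each lost without ZT13 or ZT15, with adjusted p up to 0.0678, 0.0631 and 0.0776. That of Slc7a1 was also lost without ZT23 and that of Slc6a9 without ZT7. Metal transport gave 2 rises and 1 fall among 20 (median -0.11), beside 5.27% rises and 11% falls among all genes tested. The zinc exporter gene Slc30a1 rose, with 31.7 and 42.2 FPKM against 15.4, 15.9 and 16.0 FPKM (1.16 ± 0.13, adjusted p = 0.00319). The gene of the metal importer Slc39a8 fell, with 9.20 and 6.29 FPKM against 20.7, 20.5 and 22.99 FPKM (-1.38 ± 0.16, adjusted p = 0.00297), and each of the 3 metal transport calls, Atp7b included, held without any 1 library.

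Genes of the endoplasmic reticulum chaperones and the unfolded protein response rose in 6 of 30 tested, and 0 fell (median 0.16). Hspa5, the chaperone BiP (rn4 chromosome 3, 13783619 to 13788078), had 238 and 305 FPKM at deep night, against 70.1, 98.6 and 93.2 FPKM (1.63 ± 0.19, adjusted p = 0.00317). Xbp1, a transcription factor of this response, had 61.6 and 62.2 FPKM, against 19.99, 27.9 and 25.4 FPKM (1.32 ± 0.15, adjusted p = 0.00288). Ddit3, the factor CHOP, had 38.4 and 34.9 FPKM, against 19.01, 18.8 and 18.7 FPKM (0.92 ± 0.10, adjusted p = 0.00228). These 3 calls held without any 1 library. The rises of Dnajb11 (0.64, adjusted p = 0.0196), Hyou1 (0.73, adjusted p = 0.0349) and Creld2 (0.68, adjusted p = 0.0428) did not, with adjusted p up to 0.0761, 0.0995 and 0.128, and each of the 3 was lost without ZT7, ZT13 or ZT15. The count was 8 of 30 by quantile scaling and 9 of 30 by median ratio.

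The endoplasmic reticulum stress element, which begins with CCAAT and ends with CCACG at a set distance, was searched on either strand. It stood in 21 of 27457 promoters in the table (0.08%) and in 14 of 7686 of genes tested (0.18%). Among genes that rose it was in 4 of 404 promoters, which were Hspa5, Xbp1, Creld2 and Ankmy2, and in 0 of 862 of genes that fell. The chaperone genes Hsp90b1 (0.23, adjusted p = 0.301) and Calr (0.36, adjusted p = 0.197) hold it too, and neither was called. The 3 windows of the chaperone genes and factor are shown in the direction of the gene, with the element in capitals, and in Creld2 it reads as the reverse complement.
Hspa5, chr3:38452953-38453011, + strand: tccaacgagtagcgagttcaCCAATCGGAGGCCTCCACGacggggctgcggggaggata
Xbp1, chr14:84604538-84604596, + strand: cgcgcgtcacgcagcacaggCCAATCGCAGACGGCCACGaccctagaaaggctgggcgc
Creld2, chr7:121789219-121789277, + strand: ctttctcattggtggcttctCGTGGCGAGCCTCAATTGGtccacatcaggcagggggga

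The cytosolic heat shock and cold-inducible genes gave 2 rises and 4 falls among 27 tested (median 0.07), beside 5.27% rises and 11% falls among all genes tested. Hsph1, a co-chaperone of the large heat shock proteins, had 121 and 139 FPKM at deep night, against 48.6, 63.1 and 72.8 FPKM (1.08, adjusted p = 0.0107), with a call lost without ZT13 (0.0512). Hsf1, the factor that switches heat shock genes on, fell, with 14.2 and 18.6 FPKM against 30.2, 29.5 and 31.6 FPKM (-0.87 ± 0.13, adjusted p = 0.00777). Rbm3, an RNA-binding protein known to be induced by cold, fell, with 6.21 and 5.95 FPKM against 13.4, 12.02 and 13.4 FPKM (-0.98 ± 0.11, adjusted p = 0.00263). The falls of Hsf1 and Rbm3 held without any 1 library.

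Genes of phototransduction gave 0 rises and 7 falls among 24 tested (median -0.33), beside 11% falls among all genes tested, and 17 of the 24 were not called. Pdc, phosducin, which binds the beta and gamma subunits of transducin (rn4 chromosome 13, 64622473 to 64636031), had 112 and 37.2 FPKM at deep night, against 378, 411 and 393 FPKM (-2.59 ± 0.39, adjusted p = 0.00822). Cnga1, a subunit of the rod cation channel, had 4.81 and 5.78 FPKM, against 15.6, 16.8 and 14.7 FPKM (-1.41 ± 0.12, adjusted p = 0.00107). These 2 falls held without any 1 library. Guca1b and Guca1a, which activate the photoreceptor guanylate cyclase when calcium is low, fell with differences of -0.85 (adjusted p = 0.0109) and -1.12 (0.0261). Guca1b was lost without ZT15 (0.0538), and Guca1a without ZT13, ZT15 or ZT23 (highest 0.0971). Opn1sw, the short-wave cone opsin, had 10.2 and 16.2 FPKM, against 44.8, 40.3 and 23.6 FPKM (-1.37 ± 0.29, adjusted p = 0.0233), lost without ZT7, ZT13 or ZT19 (highest 0.0898). Slc24a2, an exchanger of sodium and calcium in cones, fell by 0.65 (adjusted p = 0.0151), lost without ZT13 (0.0595). Sag, arrestin, stood at 137 and 60.6 FPKM, against 145, 314 and 350.4 FPKM, and did not pass (-1.45 ± 0.45, adjusted p = 0.0679), and it passed without ZT7 or ZT19. The transducin subunit genes Gnb3 (-0.10, adjusted p = 0.72) and Gngt2 (0.20, adjusted p = 0.511) did not pass. By quantile scaling 6 of the 24 fell, and by median ratio 4. Guca1a and Slc24a2 were not called by median ratio (adjusted p = 0.0547 each).

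The largest fall of all was that of Hs3st2, which adds sulphate to heparan sulphate (rn4 chromosome 1, 180202791 to 180324718). It had 3.27 and 0.569 FPKM at deep night, against 24.2, 28.1 and 27.5 FPKM (-3.41 ± 0.37, adjusted p = 0.00241). St8sia3, a sialyltransferase, had 6.94 and 3.28 FPKM, against 37.0, 34.1 and 35.9 FPKM (-2.65 ± 0.24, adjusted p = 0.00135). In both genes the deep night libraries were far below the others, and ZT23 was the lower. Ptpn21, a tyrosine phosphatase, had 2.03 and 1.77 FPKM, against 18.0, 15.3 and 14.4 FPKM (-2.54 ± 0.13, adjusted p = 0.00015). Sgk1, a kinase induced by glucocorticoids, had 7.13 and 14.1 FPKM, against 43.9, 40.0 and 34.3 FPKM (-1.86 ± 0.25, adjusted p = 0.00514). Of 16 tested glucocorticoid-responsive genes 5 rose, Dusp1 and Per1 among them, and 1, Sgk1, fell (median -0.08). Fkbp5, a chaperone of the glucocorticoid receptor, rose, with 67.0 and 52.9 FPKM at deep night against 23.1, 26.1 and 29.8 FPKM (1.15 ± 0.15, adjusted p = 0.00463).

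Ccl9, a chemokine, had 2.40 and 0.654 FPKM at deep night, against 24.996, 16.1 and 14.0 FPKM (-2.99 ± 0.34, adjusted p = 0.00297). Microglia and macrophages can make it. Their 16 tested markers summed to 82.1 to 91.7 FPKM at deep night, against 107 to 138 FPKM by day and dusk, with 0 of the 16 called and a median of -0.32, and the part of these cells in the fall was not tested. Hook1, which links cargo to microtubule motors, had 25.6 and 13.4 FPKM, against 77.9, 63.6 and 64.4 FPKM (-1.82 ± 0.24, adjusted p = 0.0052). Ezr, a linker of membrane and actin, had 6.24 and 4.38 FPKM, against 14.8, 21.4 and 22.9 FPKM (-1.71 ± 0.21, adjusted p = 0.00362). Wdr89 (-1.75), Vof16 (-1.83) and LOC690918 (-2.02) were the other genes among the 12 largest falls. Each of the 12 has groups that do not overlap, which all 1526 called genes share.

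Nptx1 and Syt4 were among the genes with the lowest p of the tissue comparison given further on. Nptx1, a pentraxin secreted at synapses, had 409.8 and 415 FPKM at deep night, against 75.3, 80.6 and 76.5 FPKM (2.40 ± 0.11, adjusted p = 0.000126). Syt4, a synaptotagmin of secretory vesicles, had 86.0 and 108 FPKM, against 11.4, 12.7 and 12.9 FPKM (2.87 ± 0.13, adjusted p = 0.000109). ZT19 and ZT23 were level for Nptx1, and ZT23 was the higher for Syt4. Calcium, sodium and HCN channels gave 5 rises and 2 falls among 22 tested (median -0.15), and 0 and 1 of these held without any 1 library. The T-type calcium channel genes Cacna1g (1.82 ± 0.35, adjusted p = 0.0169) and Cacna1h (1.08 ± 0.20, adjusted p = 0.0161) rose, and Cacnb2, a subunit of L-type channels, fell (-1.19 ± 0.11, adjusted p = 0.00157). The rises of Cacna1g and Cacna1h were both lost without ZT13 or ZT15. That of Cacna1g was also lost without ZT23 (highest 0.0631) and that of Cacna1h without ZT7 (highest 0.0635), while Cacnb2 held without any 1 library. Nos1, neuronal nitric oxide synthase, had 6.04 and 8.53 FPKM, against 2.22, 1.38 and 0.692 FPKM (1.80 ± 0.27, adjusted p = 0.00822).

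Genes of basic metabolism and protein turnover gave shares at or under those of all genes tested, of which 5.27% rose and 11% fell. Of 67 tested genes of the respiratory chain 1 rose and 5 fell (median -0.09), of 40 proteasome genes 0 rose and 4 fell (median -0.25), and of 16 glycolysis genes 0 rose and 1 fell (median -0.03). Of 78 ribosomal protein genes 41 were below 1 FPKM in all 5 libraries, and of the 37 tested 0 rose and 4 fell (median -0.19). None of the calls in these 4 lists held without each library in turn. Potassium channels gave 2 rises and 1 fall among 19, genes of the amino acid response 3 rises and 1 fall among 20, and ID, BMP and Notch genes 1 rise (Id1) and 0 falls among 16. The thyroid hormone list gave 1 rise and 0 falls among 10 (median -0.11). The rise was that of Hr. Dio2, the deiodinase that activates thyroid hormone, stood at 25.4 and 1.29995 FPKM, against 0.498, 0.285 and 0.209 FPKM, and did not pass (2.56 ± 0.86, adjusted p = 0.084), with a high value in the ZT19 library alone.

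**Figure D3:**
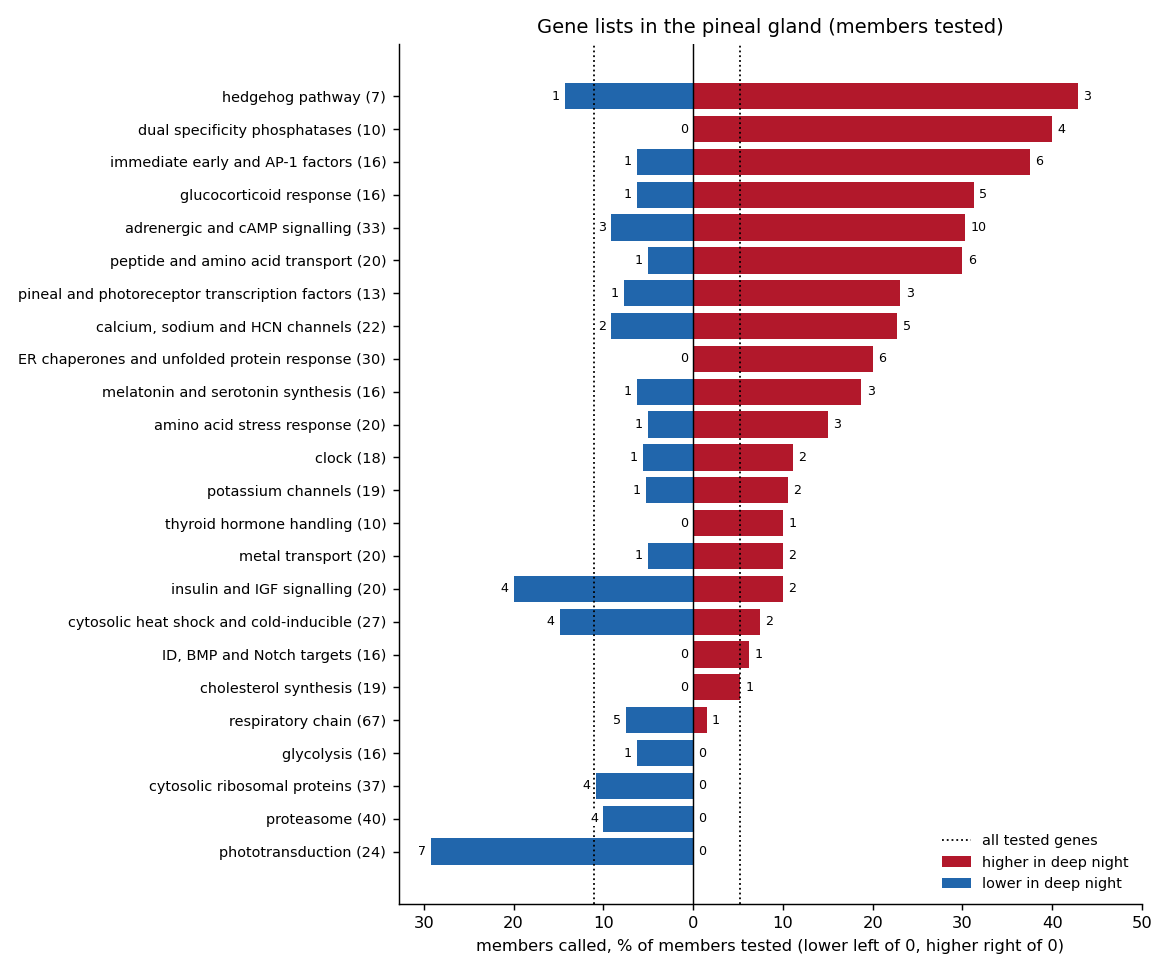
Share of tested members (percent, x axis) called higher or lower at deep night for the 24 pathway lists with at least 5 genes tested, with dotted lines at the share of all genes tested, 5.27% higher and 11% lower. Dual specificity phosphatases had 4 of 10 higher and 0 lower, and phototransduction had 7 of 24 lower and 0 higher.

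Markers of other cell types gave few calls. Of 13 tested pinealocyte markers 4 rose and 1 fell, with summed levels of 6512.5 to 6669 FPKM at deep night, against 6417 to 7334 FPKM by day and dusk. Of 12 retinal neuron markers 7, among them Nrl and Grm6, were below 1 FPKM in all 5 libraries, and the 5 tested gave 0 calls, with sums of 121 to 167 FPKM at deep night and 128 to 167 FPKM by day and dusk. Endothelial markers (9 tested) gave 0 calls, with 30.2 to 36.5 FPKM at deep night and 39.7 to 46.7 FPKM by day and dusk. Blood markers (5 tested, median -0.54) gave 0 calls, with 992 to 1508 FPKM at deep night and 1664 to 1869 FPKM by day and dusk. Choroid plexus markers (11 tested, median -0.53) gave 0 calls, with 891 to 1420 FPKM at deep night and 1230 to 4080 FPKM by day and dusk. Fibroblast and meninges markers (15 tested, median -0.30) had 271 to 281 FPKM at deep night and 293 to 459 FPKM by day and dusk. The sums of these, of the endothelial, blood and microglia lists, and of the oligodendrocyte and Schwann cell list (39.4 to 48.3 FPKM at deep night, 50.1 to 73.4 FPKM by day and dusk) lay lower in both deep night libraries, and the part of these cells in the falls was not tested. Among brain neuron markers 1 of 6, Slc17a6, rose, and the oligodendrocyte and Schwann cell marker Cnp fell (-0.90, adjusted p = 0.0095), lost without ZT13 (0.0513).

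In the retina the same contrast gave fewer calls. Of 9635 genes tested there, 155 (1.61%) rose and 225 (2.34%) fell, 380 in all (3.94%). Of the 493 pineal rises, 40 rose in the retina too, and 46 were not tested there. The difference between the tissues was tested over 10368 genes: the pineal effect was higher than the retinal one in 355 (3.42%) and lower in 272 (2.62%), 627 in all (6.05%). Among the 493 pineal rises 314 differed from the retina in this test, with a median pineal difference of 0.91 and a median retinal one of -0.01. Genes too low to be tested in the retina alone could enter this test through their pineal libraries. Among the 1033 pineal falls 204 differed, and 845 had a negative difference in the retina as well, where the median of all genes was -0.12. Of these falls 41 were not tested in the retina. The sign was the same in both tissues for 215 of the 493 rises. Over all 9353 genes tested it was the same for 5968, and 713 were not tested in the retina.

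Aanat, which the retina also expresses, had a pineal difference of 6.71 and a retinal one of 1.87, and the effects differed (adjusted p = 1.95e-06). Retinal Aanat was low, with 4.17 and 2.47 FPKM at deep night against 0.147, 0.0831 and 0.249 FPKM by day and dusk. At such levels the scale of log2(FPKM + 1) understates the retinal change and so enlarges the difference between the tissues. Ptch1 (3.86 in the pineal gland, 0.17 in the retina, adjusted p = 1.13e-06) and Nptx1 (2.40 and -0.10 in the same order, adjusted p = 2.2e-06) were among the genes with the lowest p of this test, as was Slc15a1 (adjusted p = 1.88e-07), which was too low to be tested in the retina alone. Pdc fell in the pineal gland by 2.59 and was at -0.11 in the retina (adjusted p = 0.0103). For other genes the test of the difference did not pass. Nr4a1 had 2.84 in the pineal gland and 1.56 in retina (adjusted p = 0.0681), Egr1 1.22 and 2.75 (0.77), Adra1b 1.296 and 1.28 (0.984), and Rbm3 -0.98 and -0.997 (0.974). For Per1, with a pineal value of 1.301 and a retinal one of -0.33, it passed (adjusted p = 0.0291). Retinal Adra1b was low too, with 3.80 and 3.43 FPKM at deep night against 0.788, 0.924 and 0.984 FPKM by day and dusk. Its like values in the 2 tissues on this scale are therefore not equal fold changes of FPKM.

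**Figure D4:**
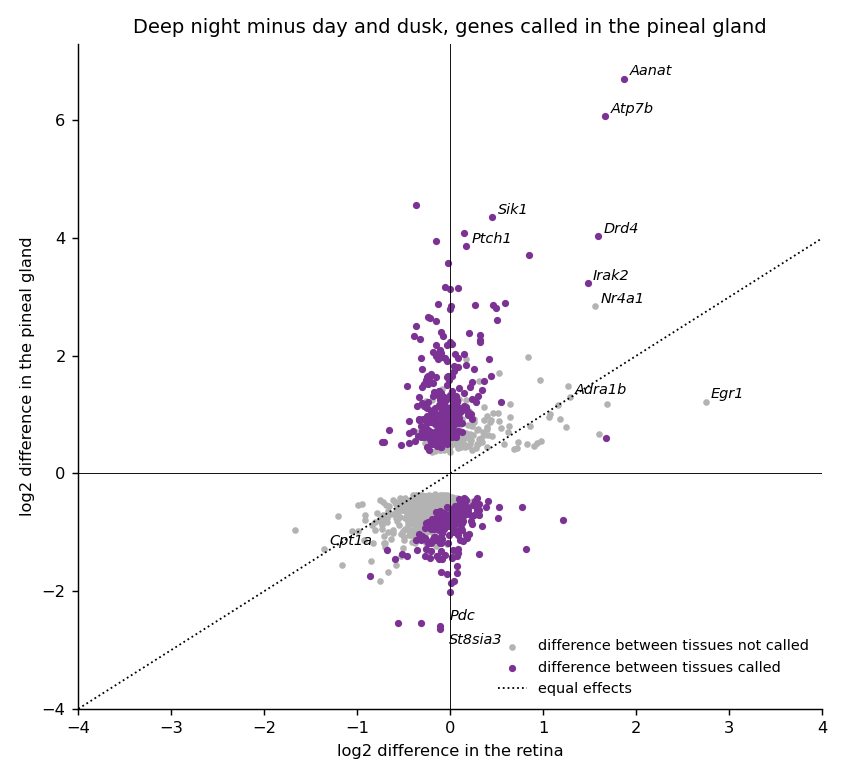
Log2(FPKM + 1) difference, deep night minus day and dusk, in the pineal gland (y axis) and the retina (x axis) for 1439 genes called in the pineal gland and tested in both tissues, with equal effects on the dotted line. Among the 466 genes drawn whose effects differed between the tissues, Ptch1 (3.86 and 0.17) lies high up near a retinal difference of 0. Adra1b (1.296 and 1.28), whose effects were not called different, lies on the dotted line. The retinal values of Adra1b are low (0.788 to 3.80 FPKM), where this scale understates the change.

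The pineal ZT1 library, 1 value per gene without error, was set beside both groups to see how far each night difference was still present after lights on. Of the 211 genes that rose at least 2-fold, 109 kept more than 50% of the log2 difference at ZT1, and the median was 53.8%. Aanat kept 86.4% (396 FPKM), Slc15a1 78.0% (69.5 FPKM), Atp7b 83.7% (70.9 FPKM), Hhip 95.8% (35.4 FPKM) and Drd4 95.2% (34.1 FPKM). At the other end Sik1 kept 2.04% (1.90 FPKM), Dusp1 9.75% (3.90 FPKM) and Ptch1 14.6% (16.2 FPKM), and Irs2 (2.02 FPKM) and Pde4b (8.29 FPKM) lay below their day and dusk means. Among the 113 genes that fell at least 2-fold, 49 stayed past 50%, with Hs3st2 at 65.0% of its fall and Sgk1 at 2.74%. Adding ZT1 to the day and dusk group ended the calls of Aanat (adjusted p = 0.0864), Slc15a1 (0.0689), Atp7b (0.0838), Fcer1a (0.0838), Hhip (0.117), Drd4 (0.118), Hspa5 (0.0862), Adra1b (0.0798), Ribc2 (0.177), Pde8b (0.112), Pde10a (0.0577), Syt4 (0.0609), Hs3st2 (0.0537) and Pdc (0.0505). In all 47 of the 100 named genes that were called lost their call with it, while 116 of the 211 rises and 73 of the 113 falls were still called.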

How the data were processed

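Pineal and retinal libraries at 6 times of day were sequenced as 101-base paired ends, per the labels' protocols, after polyadenylated RNA was enriched from 10 µg of total RNA and amplified with 16 PCR cycles, with 6 libraries per lane. Per the submitters' processing notes, Cufflinks 1.2.0, TopHat 1.3.1 and genome build rn4 were used. Overlapping genes cannot be told apart, since strand is not given in the sources used here. The values the authors deposited were FPKM per RefSeq transcript. Absolute depth is unknown, and the worth of 1 fragment was estimated roughly from the lowest values above 0 of olfactory receptor transcripts. Genes that other copies resemble may be listed near 0.

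From these values, 16932 transcripts were summed to 16472 genes by gene ID, and 24 date-like symbols were renamed from RefSeq. A gene was tested where 2 or more of the 5 libraries reached 1 FPKM. The test was limma's (version 3.58.1, R 4.3.3) on log2(FPKM + 1), two-sided, moderated along the trend of variance with level, on 3 residual degrees of freedom. Adjusted p is Benjamini-Hochberg over all genes tested, with a threshold of 0.05. The tissue difference was an interaction contrast over 10 pineal and retinal libraries. The p-values measure only the spread between these libraries, moderated across genes, so the SE of a gene can exceed its own spread. Other scalings, filters and pseudocounts, and leaving out each library, were tried as alternatives.

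The genes picked for naming were the 14 largest rises and 12 largest falls, up to 4 called and 2 most abundant members of each pathway list, a short set of pineal genes, and 8 with the lowest tissue difference p. Not all of these are printed. Those left out include abundant members that were not called, such as Jund, Hspa4, Irs1 and Dbp. Other called members were chosen after their values were seen. The members, lists and tests were chosen with earlier results of these data known. The models were tested on simulated data. Promoter letters are from RefSeq on GRCr8, used with gene IDs alone, and gene coordinates are rn4.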

Additional observations from a re-analysis of the deposited data

Results flagged for a closer look

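The effect of deep night against day and dusk differed between the pineal gland and the retina in 627 genes by the interaction test in limma. Values here are the pineal log2 difference minus the retinal one. They carry no explanation, and the pineal deep night libraries were also the shallower ones. Genes too low to be tested in the retina alone include Slc15a1, Dclk3, Hhip, Ribc2, B3gnt8 and Hs3st2. These entered the test through their pineal libraries. On the scale of log2(FPKM + 1) their retinal difference is held near 0, so their values here mostly repeat the pineal difference.

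Among the genes with a higher pineal effect, the value was 7.05 for Slc15a1, 4.94 for Fcer1a, 4.84 for Aanat, 4.4 for Atp7b and 4.13 for Dclk3. Hhip and Irs2 stood at 4.11 each, Crem at 3.94, Sik1 at 3.9, Ptch1 at 3.69, Zrsr1 at 3.6 and Ribc2 at 3.54. Of the phosphodiesterases, Pde10a stood at 3.23, Pde4b at 2.42 and Pde8b at 2.4. Syt4 stood at 3.01, B3gnt8 at 2.95, Dusp1 at 2.86, Nptx1 at 2.5, Drd4 at 2.44, Slc17a6 at 2.19, Igf1r at 2.16 and Bsx at 2.02. Drd4 and Atp7b rose in the retina as well, by 1.59 and 1.67 (adjusted p = 0.000189 each in limma). Retinal Drd4 had 65.2 and 52.0 FPKM at deep night, against 18.5, 18.3 and 19.3 FPKM by day and dusk. Retinal Atp7b had 12.2 and 10.3 FPKM, against 2.47, 2.78 and 3.35 FPKM.

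Between 1 and 2 lay Mt1a and Mat2a (1.95 each), Hspa5 (1.86), Cacna1g (1.78), Per1 (1.63), Btg2 (1.53), Fkbp5 (1.51), Mthfd2 (1.39), Slc7a1 (1.34) and Ddit3 (1.26). Slc7a5 (1.17), Slc30a1 (1.13), Gli2 (1.09), Id1 (1.08), Cacna1h (1.04) and Xbp1 (1.02) followed. Under 1 were Dnajb11 (0.99), Hsph1 (0.92), Klf10 (0.69) and Dusp8 (0.67).

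Among the genes with a lower pineal effect, Hs3st2 stood at -3.22, St8sia3 at -2.54, Pdc at -2.48, Ccl9 at -2.31, Ptpn21 at -2.22 and LOC690918 at -2.02. Adcy1 stood at -1.98, Vof16 at -1.87, Sgk1 at -1.86, Ezr at -1.67, Slc39a8 at -1.5, Isl2 at -1.31 and Cnga1 at -1.27. The smaller values were those of Cacnb2 (-0.98), Rora (-0.95), Igfbp2 (-0.94), Vldlr (-0.93), Wdr89 (-0.88), Slc24a2 (-0.82), Hsf1 (-0.8) and Foxo3 (-0.68).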

How the results depend on the processing

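The count of 493 genes that rose was 741 by median ratio scaling and 224 with ZT1 added to day and dusk, and 221 (without ZT13) to 507 when each library was left out, with 309 without ZT7 and 279 without ZT15. The count of 1033 that fell was 632 with no filter on low values, 527 by quantile scaling, 411 by median ratio, 306 with ZT1 added, 1845 with the retina libraries sharing the error, and 212 (without ZT13) to 996 when each library was left out, with 467 without ZT7, 299 without ZT15 and 632 without ZT19. Of the 493 rises 194 were called without each library in turn, and of the 1033 falls 179. The 355 genes with a higher pineal than retinal effect ranged from 196 (without retina ZT19) to 469, with 200 without retina ZT23. The 272 with a lower one ranged from 91 (without retina ZT19) to 319, with 180 without pineal ZT13, and 155, 167 and 134 without retina ZT13, ZT15 and ZT23. The cause of these moves was not tested, except that a left-out library leaves fewer residual degrees of freedom and that the scalings shift the median of all genes from -0.17 to -0.04 (quantile) and -0.02 (median ratio). Pseudocounts of 0.1 and 5, the other filters, other moderation settings and values per transcript kept both pineal counts within 1.5 times. Over the named genes and settings 4044 values kept their side of the threshold, 316 lost the call, 60 gained one and 98 that were not called changed sign. No called value changed sign. A lone library at deep night, when the other was left out, is assumed to vary like the day and dusk libraries. The pineal comparison has no pairs, since each time was sampled by 1 pool. For the tissue difference, time as a block (5 pineal minus retina differences, 3 residual degrees of freedom) was added after seeing the data and gave 285 genes higher and 174 lower, of which 272 and 162 were among the 355 and 272. Klf10, Dusp8, Hsph1, Id1, Hsf1, Foxo3 and Wdr89 then missed (adjusted p 0.0502 to 0.0677), and Nr4a1 passed (0.0312). Libraries of the same time in both tissues hardly deviated together from their group means (correlation 0.013 to 0.086 across genes). Values near the worth of 1 fragment, about 0.05 FPKM in the deep night libraries, carry large counting error.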

Other observations

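Further groups of genes were described after their values were seen, so they carry no test as groups, and their counts stand beside 5.27% rises and 11% falls among all genes tested. Among the genes that put sugars on proteins and lipids, 4 of 9 tested GalNAc transferase genes, which start mucin-type chains, rose and 1 fell. Galntl1 had 103 and 158 FPKM at deep night, against 20.1, 19.9 and 17.7 FPKM by day and dusk (2.66 ± 0.18 SE, adjusted p = 0.00042). Galnt7 had 48.2 and 48.3 FPKM, against 24.4, 27.2 and 27.7 FPKM (0.85 ± 0.10, adjusted p = 0.00362), and Galnt14 fell (-1.40 ± 0.26, adjusted p = 0.015). The rises of Galnt4 (1.57, adjusted p = 0.0167) and Galnt11 (0.67, adjusted p = 0.0103) were lost without ZT13 (highest 0.0548 and 0.0539), and that of Galnt4 also without ZT7. Of 4 tested alpha-2,8-sialyltransferase genes 2 rose and 1 fell. St8sia2, which builds polysialic acid, had 8.31 and 18.2 FPKM, against 0.841, 0.585 and 0.213 FPKM (3.13 ± 0.32, adjusted p = 0.00185), while St8sia3 fell. The rise of St8sia5 (1.80 ± 0.34, adjusted p = 0.0156) was lost without ZT7, ZT13 or ZT15 (highest 0.0539). St8sia2 and St8sia5 were not tested without ZT19 or ZT23, since only 1 library then reached 1 FPKM.

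Of 7 tested genes of carnitine-dependent fatty acid transport 0 rose and 4 fell, 2 of which held without any 1 library. Slc25a20, the mitochondrial carrier of acylcarnitine, had 15.1 and 19.5 FPKM at deep night, against 42.8, 38.2 and 35.9 FPKM (-1.13 ± 0.14, adjusted p = 0.00366). Cpt1b, a carnitine palmitoyltransferase, had 10.4 and 8.23 FPKM, against 18.8, 20.03 and 21.5 FPKM (-1.04 ± 0.13, adjusted p = 0.00362). The isoform gene Cpt1a fell in the pineal gland (-1.28 ± 0.24, adjusted p = 0.0159) and stood at -1.36 in the retina, and its pineal call was lost without ZT13 or ZT19 (highest 0.0552). Crot, which moves acyl chains out of peroxisomes, fell by 0.56 (adjusted p = 0.0165), lost without ZT13 or ZT15 (highest 0.0789).

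Dclk1, a kinase related to Dclk3, had 51.4 and 60.3 FPKM at deep night, against 10.3, 8.07 and 7.18 FPKM (2.59 ± 0.16, adjusted p = 0.000276). Of 12 tested genes of regulators of G protein signalling 2 rose and 1 fell. Rgs17 had 14.7 and 16.3 FPKM, against 4.11, 4.97 and 5.05 FPKM (1.53 ± 0.12, adjusted p = 0.00088), and Rgs4 had 5.19 and 7.99 FPKM, against 22.8, 16.0 and 20.4 FPKM (-1.46 ± 0.20, adjusted p = 0.0058). Rgs2, with 38.8 and 12.4 FPKM against 4.22, 4.06 and 4.996 FPKM, rose (2.09 ± 0.40, adjusted p = 0.0164), and the call was lost without ZT7 or ZT13 (highest 0.0679). Gem, a small GTPase that inhibits calcium channels, had 131 and 73.0 FPKM, against 26.0, 28.8 and 38.5 FPKM (1.64 ± 0.26, adjusted p = 0.00966). Gucy1a3, a subunit of the guanylate cyclase that nitric oxide activates, had 13.6 and 12.4 FPKM, against 41.2, 38.7 and 41.5 FPKM (-1.57 ± 0.10, adjusted p = 0.000351).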
